A study of Mus musculus with 12 samples.

Results

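The transcripts described here are those of the immunoglobulin variable genes, measured in erythroblasts sorted from mouse spleen. A feature, the array's unit for a transcript, was a member when it named exactly 1 gene and the symbol of that gene began with Ighv or Igkv and a number. The rule found 203 members, each for a different gene, among 72688 features on the array, of which 31258 named exactly 1 gene. They comprised 117 heavy variable (Ighv) genes and 86 kappa variable (Igkv) genes. A further 24 features named a heavy or kappa variable gene together with other genes and were not counted.

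The samples came from male mice fed for 3 months on food with adequate selenium or food deficient in it, and then given phenylhydrazine, a drug that lyses red cells so that the spleen forms new ones (stress erythropoiesis). Splenic erythroblasts of 2 stages were sorted 3 days later: proerythroblasts, the earlier stage, and basophilic erythroblasts, the stage that follows. The 4 groups of diet and stage had 3 arrays each, made from 5 ng of total RNA per sample. All groups had received phenylhydrazine, so no untreated level was measured. The labels give neither the strain, the age nor the markers used for the sort, and do not say whether the 3 samples of a group came from separate animals. The p-values therefore measure only the spread between these samples, which may be technical. Precision is limited by having 3 arrays a group.

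An antibody is built from heavy and light chains, and the variable part of each chain is encoded by a V gene that a developing B cell joins to short D and J segments or to a J segment alone. Each B cell keeps a single productive heavy chain rearrangement and usually a single light chain, and plasma cells, which secrete antibody, carry very large amounts of the resulting transcripts. Erythroid cells do not make antibody. V genes of a family resemble each other in sequence, so that an array feature can take signal from a relative as well as from its own gene, and members of a family are not independent measurements. In these bulk samples fewer cells of a type and less RNA per cell cannot be told apart.

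The heavy members lie in the Igh locus on chromosome 12 and the kappa members in the Igk locus on chromosome 6, according to the RefSeq table of assembly GRCm38.p6, which holds 183 Ighv and 162 Igkv genes. RefSeq lists 111 of the heavy members as V segments and 6 as V segment pseudogenes, and 79 of the kappa members as V segments and 7 as pseudogenes. The largest heavy family, Ighv1, had 63 members. Counted from the constant genes outward, they lay between positions 74 and 183 of the 183 heavy genes. The 8 members of Ighv2 lay between positions 2 and 31, at the constant end. The largest kappa family, Igkv4, had 25 members between positions 53 and 108 of the 162 kappa genes.

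Some arrays stand apart or carry conflicting labels. For replicate 3 of the deficient basophilic group the sample description says proerythroblasts while the title and cell type say basophilic, and the array was kept as basophilic. On that array the median of the 12 measured erythroid genes was 11.12 on the log2 scale, beside 11.15 and 10.67 on the other deficient basophilic arrays and 10.44 to 10.72 on the deficient proerythroblast arrays. Replicate 2 of both basophilic groups had higher medians over all features, and over the array's background features, than the other arrays of its group. Of the 12 measured erythroid genes 8 rose from proerythroblasts to basophilic erythroblasts on the adequate diet and 3 on the deficient diet, and none fell. Among all genes tested 28.7% rose on the adequate and 31.1% on the deficient diet. The erythroid share that rose was therefore above that of all genes on the adequate diet only.

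V gene signal was highest on replicate 3 of both proerythroblast groups and differed more between replicates there than between the diets. The median of the 117 heavy members, on the authors' log2 scale, was 5.86, 6.26 and 7.77 in adequate proerythroblast replicates 1, 2 and 3. It was 6.31, 6.58 and 7.25 in the deficient proerythroblasts, 5.87, 5.98 and 6.10 in the adequate basophilic erythroblasts, and 5.65, 5.59 and 5.81 in the deficient basophilic erythroblasts. The proerythroblast arrays of the 2 diets overlapped, whereas every deficient basophilic array lay below every adequate basophilic array. As means over 3 arrays these medians were 6.63 ± 1.01, 6.71 ± 0.48, 5.98 ± 0.12 and 5.68 ± 0.11 (SD, n = 3 each).

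The kappa members had a like course. Their median was 5.51, 5.85 and 7.07 in the adequate proerythroblasts and 6.0, 6.10 and 6.58 in the deficient proerythroblasts. It was 5.51, 5.54 and 5.66 in the adequate and 5.45, 5.24 and 5.57 in the deficient basophilic erythroblasts, and here the 2 diets overlapped. The group means were 6.14 ± 0.82, 6.22 ± 0.31, 5.57 ± 0.08 and 5.42 ± 0.16 (SD, n = 3 each).

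**Figure D1:**
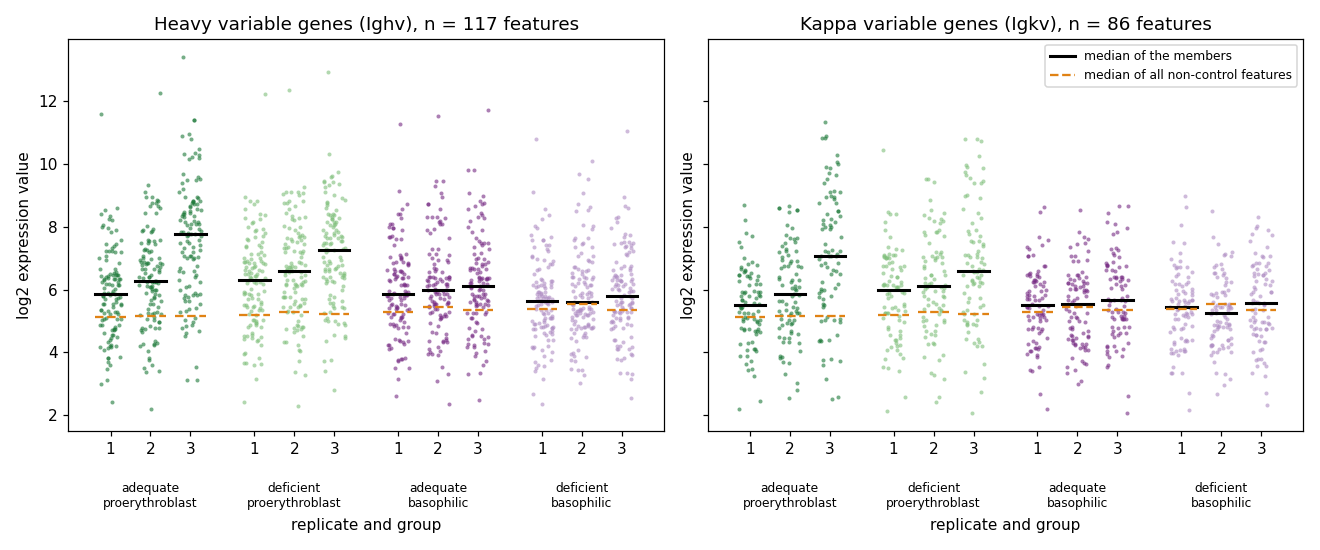
Log2 expression value (vertical axis) of every heavy member (left, n = 117) and kappa member (right, n = 86) on each of the 12 arrays, with each point a feature, the black line the median of the members and the dashed line the median of all non-control features. The median of the members is highest on replicate 3 of the adequate proerythroblasts, 7.77 for heavy and 7.07 for kappa, where the dashed line is at 5.17.

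Members above background were counted against the array's own background features, whose 95th percentile was itself higher on the basophilic arrays, 7.42 to 8.93, than on the proerythroblast arrays, 6.66 to 7.02. Of the 117 heavy members, 23, 37 and 81 exceeded the 95th percentile of the array's background features in the adequate proerythroblasts, and 33, 45 and 66 did so in the deficient proerythroblasts. In the basophilic erythroblasts the counts were 18, 9 and 18 on the adequate diet and 12, 4 and 11 on the deficient diet. For the 86 kappa members they were 6, 23 and 51 and then 20, 29 and 39 in proerythroblasts, and 5, 1 and 8 and then 3, 0 and 6 in basophilic erythroblasts. Most kappa members were therefore within the range of background features on every basophilic array.

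Summed on the linear scale, the heavy members came to 12820 to 54430 units on the adequate proerythroblast arrays and 17380 to 32550 on the deficient ones. The sums were 13160 to 17330 on the adequate and 10490 to 11940 on the deficient basophilic arrays, which did not overlap. The kappa sums were 5437 to 28360 and 8280 to 22070 in proerythroblasts, and 5381 to 6890 and 4565 to 5945 in basophilic erythroblasts, where the diets did overlap.

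Replicates of a group differed far more in V genes than in other genes among the proerythroblasts. The median within-group SD of a heavy member was 1.04 in adequate and 0.53 in deficient proerythroblasts, and that of a kappa member was 0.86 and 0.46. The median SD over all 30701 genes was 0.10 and 0.12 in the same groups. In the basophilic groups it was 0.20 and 0.31 for heavy members, 0.25 and 0.29 for kappa members, and 0.19 and 0.29 for all genes.

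Replicate 3 was the array that stood apart in both groups. In the adequate proerythroblasts it was the highest of the 3 arrays for 113 of 117 heavy and 77 of 86 kappa members, and in the deficient proerythroblasts for 87 and 66. Over all genes replicate 3 was the highest array for 33.5% and 24.8% of genes. The median heavy member was higher on replicate 3 than the mean of replicates 1 and 2 by 1.70 on the adequate and 0.60 on the deficient diet, and the median kappa member by 1.44 and 0.58. For all genes this median was -0.005 on both diets. Over the 12 arrays, 79 heavy members (67.5%) and 54 kappa members (62.8%) had their highest value on adequate proerythroblast replicate 3, against 4.57% of all genes.

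The families took part unequally. On adequate proerythroblast replicate 3 all 63 Ighv1 members and all 25 Igkv4 members were the highest of their group. Their median excess over the other 2 replicates was 1.95 for Ighv1 and 2.51 for Igkv4, and on the deficient diet it was 0.75 and 1.71. The other kappa families had 1.01 and 0.26. The Ighv2 family had 0.35 and -0.05. Over the 12 arrays the Ighv2 median ranged from 7.04 to 8.29 and the Ighv1 median from 5.37 to 8.10.

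**Figure D2:**
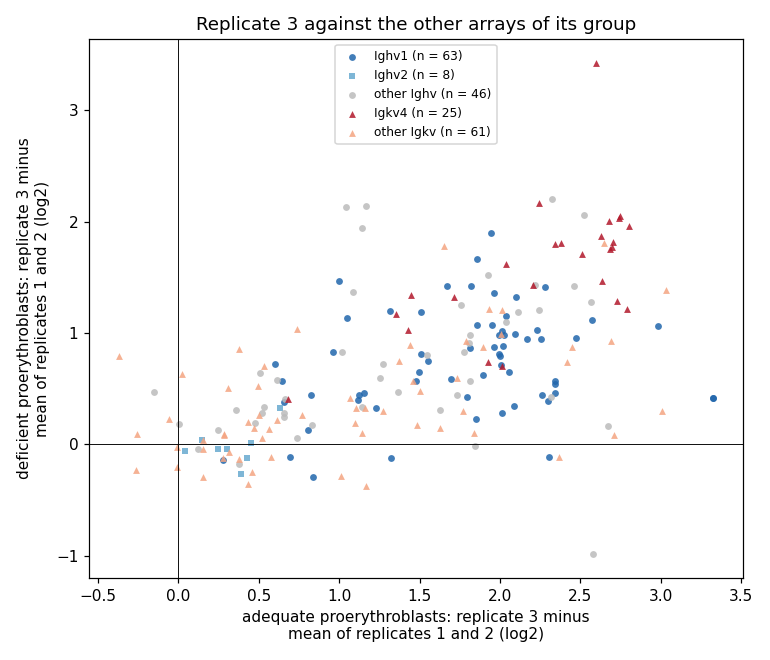
Each point is a member, placed by its log2 value on replicate 3 minus the mean of replicates 1 and 2 in adequate proerythroblasts (horizontal axis) and in deficient proerythroblasts (vertical axis), with families marked. Igkv4 members lie to the upper right, with medians of 2.51 and 1.71, and Ighv2 members lie near the origin.

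**Figure D3:**
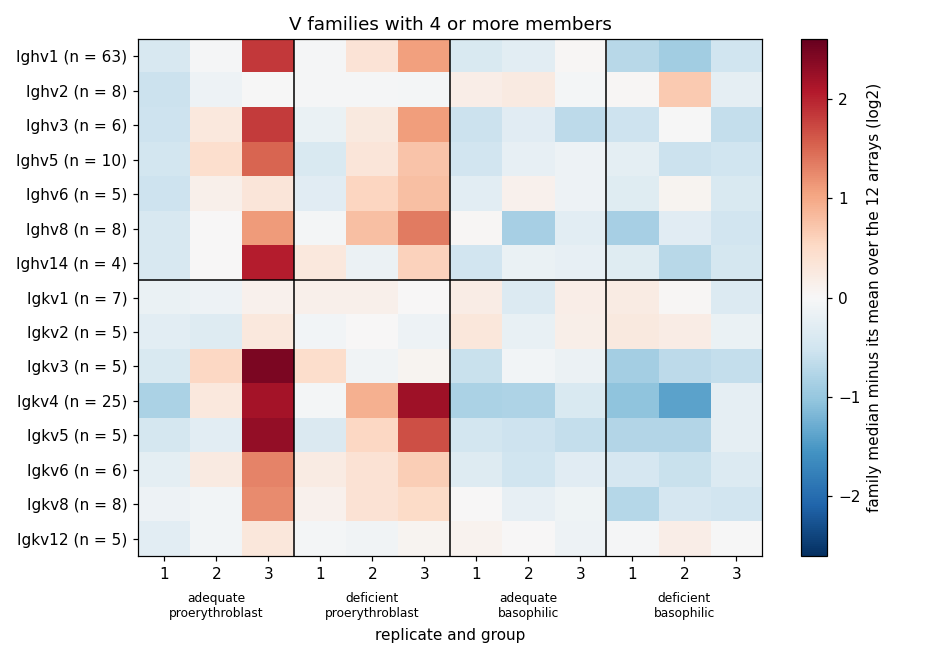
Median of each V family with 4 or more members on each array, minus its mean over the 12 arrays (log2, colour), with heavy families above the line and kappa families below it. The darkest cells are on replicate 3 of the adequate proerythroblasts in Igkv3, Igkv5, Igkv4 and Ighv14, with Igkv4 as dark on deficient proerythroblast replicate 3, and Ighv2 is highest on deficient basophilic replicate 2.

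Markers of other blood cells moved with the same array. On adequate proerythroblast replicate 3, all 4 measured immunoglobulin constant genes, 12 of 15 plasma cell genes and all 20 measured B cell genes had the highest value of the group. So did all 12 measured T and NK cell genes, all 14 macrophage genes and all 14 neutrophil genes, whereas none of the 12 erythroid genes was highest there alone (0 of 12), with Alas2 tied at 10.19 on replicates 2 and 3. On deficient proerythroblast replicate 3 the counts were 3 of 4, 10 of 15, 12 of 20, 7 of 12, 13 of 14, 9 of 14 and 2 of 12 in that order.

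As ranges of the summed linear level over the 3 arrays, the B cell list lay at 3713 to 9561 in adequate and 4956 to 6513 in deficient proerythroblasts, and at 3207 to 4727 and 2726 to 5076 in the basophilic groups. The plasma cell list lay at 2654 to 5240, 2665 to 3538, 2425 to 2645 and 2743 to 2863 in the same order of groups. The constant genes lay at 2621 to 9805, 3460 to 6417, 2213 to 3017 and 1002 to 2135. The macrophage list was 730 to 1833, 863 to 1666, 1029 to 1489 and 1060 to 1501, and the neutrophil list 1875 to 6277, 2601 to 5519, 1081 to 1351 and 1329 to 1590. The T and NK cell list was 607 to 1438, 738 to 813, 790 to 876 and 668 to 892. The erythroid list lay at 15750 to 20220 and 28800 to 31080 in proerythroblasts and at 36910 to 45040 and 34370 to 43400 in basophilic erythroblasts. The part of these cells in the V gene values was not tested.

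The heavy members with the highest values over the 12 arrays were Ighv1-2, Ighv2-5, Ighv1-56, Ighv10-1, Ighv1-5, Ighv5-12-4, Ighv1-73 and Ighv1-14. Feature values depend on the probes, so this order is not an order of transcript amounts. Ighv1-2, a gene that RefSeq lists as a pseudogene, had the highest mean, 11.77. It gave 11.59, 12.24 and 13.41 in adequate proerythroblasts, 12.21, 12.35 and 12.93 in deficient proerythroblasts, 11.28, 11.53 and 11.70 in adequate basophilic and 10.79, 10.09 and 11.06 in deficient basophilic erythroblasts. Its deficient basophilic arrays lay below all 9 others. Ighv2-5 behaved differently, at 8.52, 8.76 and 8.79 in adequate proerythroblasts, 8.96, 9.0 and 9.02 in deficient proerythroblasts, 9.15, 9.07 and 9.08 in adequate basophilic and 9.12, 9.69 and 8.95 in deficient basophilic erythroblasts. Its adequate proerythroblast arrays were the lowest 3 of the 12.

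The 8 highest kappa members were Igkv19-93, Igkv15-103, Igkv4-71, Igkv4-54, Igkv4-59, Igkv8-34, Igkv4-63 and Igkv4-61. Igkv19-93 was at 8.70, 7.95 and 11.33 in adequate and 10.45, 8.43 and 9.74 in deficient proerythroblasts, and at 8.63, 8.52 and 8.65 in adequate and 8.97, 7.07 and 7.55 in deficient basophilic erythroblasts. Its high arrays were replicate 3 on the adequate diet but replicates 1 and 3 on the deficient diet. Igkv4-59 was at 7.51, 8.52 and 10.82 in adequate and 8.15, 9.51 and 10.79 in deficient proerythroblasts, and at 7.30, 6.92 and 7.78 and then 6.69, 5.77 and 7.73 in the basophilic groups. Replicate 3 was the highest array of all 4 groups for this gene. Igkv8-34 varied little, from 7.35 to 8.11 over the 12 arrays.

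Some single genes departed from the course of their class, and those that follow were chosen after their values were seen. Ighv1-62-2 and Ighv1-71 had identical values on all 12 arrays and cannot be told apart: 7.22, 8.95 and 11.41 in adequate and 6.85, 9.11 and 8.40 in deficient proerythroblasts, 6.59, 9.44 and 9.81 in adequate and 5.92, 6.40 and 6.19 in deficient basophilic erythroblasts. Adequate replicates 2 and 3 were high and replicate 1 low at both stages. Igkv5-39 had the same arrangement, at 5.42, 8.47 and 9.98 in adequate proerythroblasts and 5.22, 7.66 and 8.43 in adequate basophilic erythroblasts. Its values on the deficient diet were 6.26, 7.84 and 8.44 in proerythroblasts and 4.46, 4.39 and 6.14 in basophilic erythroblasts.

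Igkv3-4 gave 6.55, 8.59 and 10.28 in adequate proerythroblasts and 6.50, 7.47 and 8.08 in adequate basophilic erythroblasts, but 7.09, 6.93 and 7.09 and then 6.50, 7.20 and 6.63 on the deficient diet. Replicates 2 and 3 of both adequate groups lay above all 6 deficient arrays. Igkv4-57-1 gave 10.25 on deficient proerythroblast replicate 3 and 7.77 on deficient basophilic replicate 3, against 5.38 to 7.04 on the other deficient arrays. On the adequate diet it ranged from 5.74 to 6.74 apart from 8.94 on proerythroblast replicate 3.

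With each array's class median and each member's group mean taken off, deviations of the members on same-numbered arrays of the adequate groups of both stages correlated at 0.444, 0.260 and 0.460 for replicates 1, 2 and 3. The correlation is across 202 members, with Ighv1-71 left out as a duplicate, and members of a family are not independent. The corresponding values between the deficient groups of both stages were 0.213, 0.181 and 0.636. Between the proerythroblasts of both diets they were 0.609, 0.258 and 0.594, and between the basophilic groups 0.11, 0.187 and 0.401. Groups that differed in both diet and stage correlated as well. Adequate proerythroblasts with deficient basophilic erythroblasts gave 0.145, 0.302 and 0.566, and deficient proerythroblasts with adequate basophilic erythroblasts 0.184, 0.071 and 0.328. The labels do not say whether same-numbered arrays share animals or a day.

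**Figure D4:**
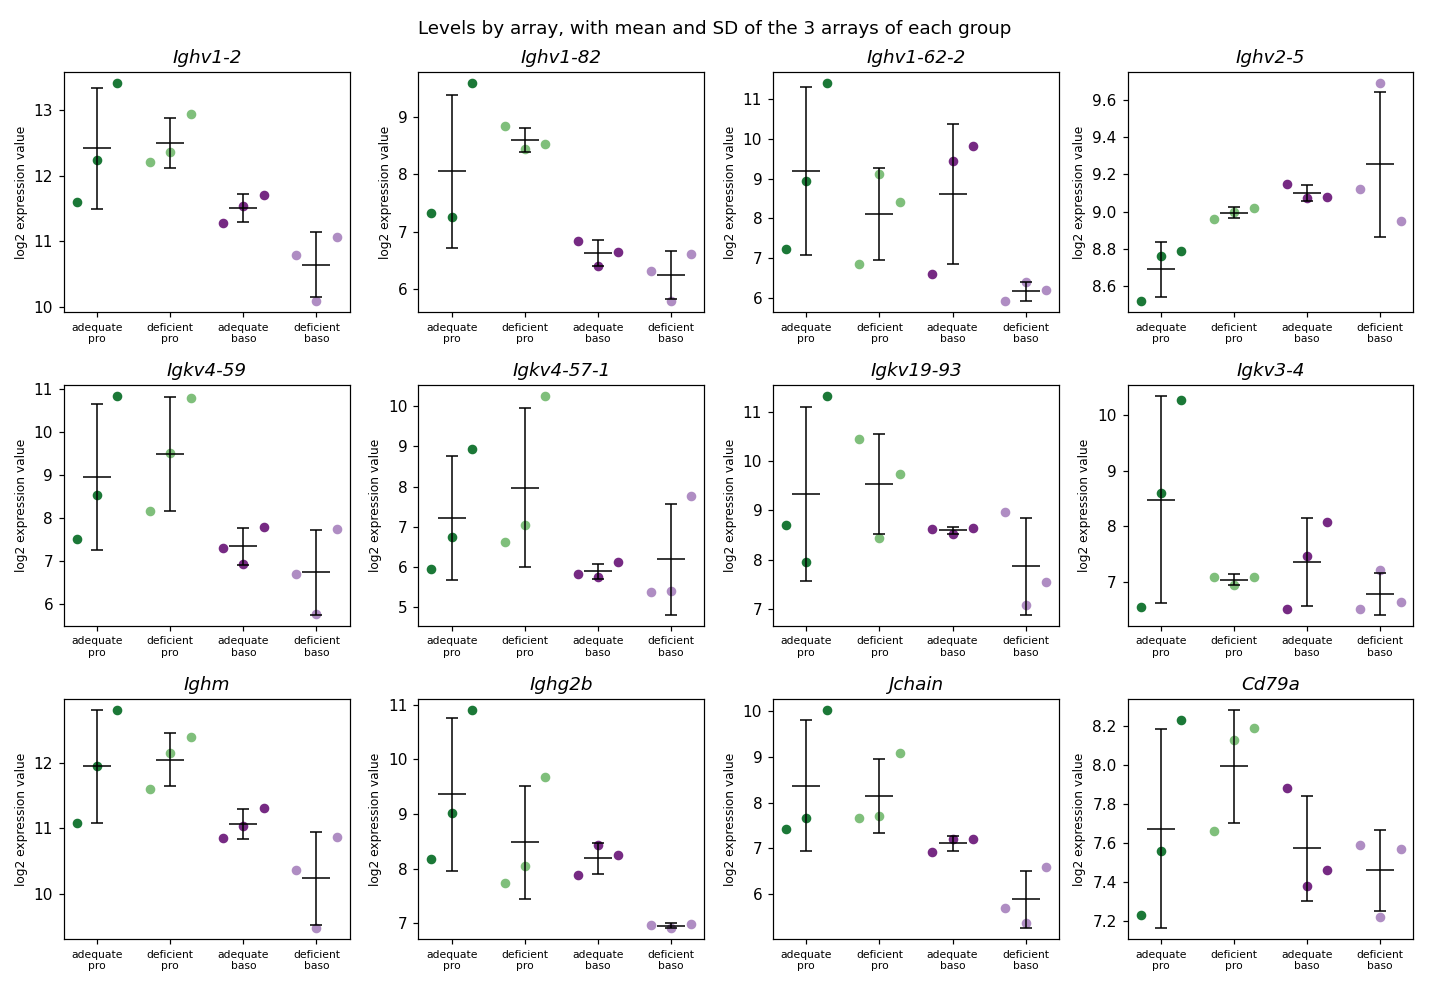
Log2 expression value by array for 8 variable genes and for Ighm, Ighg2b, Jchain and Cd79a, with each point an array in replicate order and the black bars the mean and SD of the 3 arrays of a group. Ighv1-2 is lowest in the deficient basophilic group, at 10.09 to 11.06, Ighv1-62-2 and Igkv3-4 scatter widely among adequate replicates, and Ighv2-5 is lowest in adequate proerythroblasts.

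The diet comparison in proerythroblasts asked whether selenium deficiency altered V gene signal at the earlier stage. Tested were 100 heavy and 65 kappa members, those above 5.30 in at least 3 arrays. No heavy and no kappa member passed an adjusted p of 0.05 (limma, Benjamini-Hochberg over 20129 genes), in a comparison in which 4.02% of all genes did (1.27% higher and 2.76% lower on the deficient diet), and 0 heavy and 2 kappa members had an unadjusted p under 0.05. The median difference, deficient minus adequate, was 0.03 over all heavy and 0.11 over all kappa members, beside 0.04 over all genes. Over the tested members the median was 0.02 for heavy and 0.21 for kappa. It was -0.34 and -0.19 without adequate proerythroblast replicate 1 and 0.53 and 0.59 without adequate proerythroblast replicate 3. Without deficient proerythroblast replicate 3 it was -0.24 and -0.14, so leaving out a single array turned its sign. Of the heavy members 63 were above 0 and 53 below, and of the kappa members 56 and 30. That is 53.8% and 65.1% above 0, while 60.8% of all genes were.

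The 3 deficient arrays all lay above the 3 adequate arrays for 4 heavy and 6 kappa members, where 15% of all genes and 15.5% of those tested did. They lay below them for 0 and 0, where 11.1% of all genes and 15.6% of those tested did. The 4 heavy members were Ighv2-5, Ighv2-6-8, Ighv2-1 and Ighv5-8, whose differences were between 0.20 and 0.30. The difference of Ighv2-5 was 0.30 with a standard error of 0.17 (adjusted p = 0.526, limma). The kappa member with the smallest p was Igkv12-47, at 6.63, 6.74 and 6.84 on the adequate and 7.09, 7.06 and 7.11 on the deficient diet. That difference was 0.35 with a standard error of 0.13 (adjusted p = 0.195, limma). Igkv3-4 had a difference of -1.44 with a standard error of 0.71, and the groups overlapped (adjusted p = 0.412, limma). With 1 array left out at a time its adjusted p ranged from 0.0414 to 0.919 (limma), and 1 of these 12 fits called it. The highest was without adequate proerythroblast replicate 3.

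Same-numbered arrays of the 2 diets deviated together within each stage, and the fit with the replicate number as a block within each stage called 2 of 100 heavy and 3 of 65 kappa members for the diet in proerythroblasts, where that fit called 11.1% of all genes tested. These were Ighv9-3 at -1.06 (adjusted p = 0.0221, limma), Ighv8-14 at 0.49, Igkv4-56 at 0.60 (adjusted p = 0.00767, limma), Igkv1-133 at 0.65 and Igkv4-69 at 0.51. Ighv9-3 was the only 1 of these 5 lower on the deficient diet, at 7.21, 9.32 and 10.79 against 6.72, 8.0 and 9.42. Each deficient array lay below the adequate array of its number, although the groups overlapped.

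In basophilic erythroblasts no heavy and no kappa member passed either, where 0.0199% of all genes did (0.00994% higher and 0.00994% lower), and 2 heavy and 0 kappa members had an unadjusted p under 0.05. The median difference was -0.21 over all heavy and -0.06 over all kappa members, beside 0.06 over all genes. Of the heavy members 33 were above 0 and 83 below, and of the kappa members 34 and 52, while 63.6% of all genes were above 0. The smallest adjusted p was 0.705 for heavy and 0.848 for kappa members (limma).

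The basophilic arrays of the 2 diets were separated for many heavy members all the same. All 3 deficient arrays lay below all 3 adequate arrays for 31 heavy members (26.5%) and 6 kappa members (6.98%), against 2.8% of all genes and 3.9% of those tested. They lay above them for 2 heavy and 3 kappa members, against 4.13% of all genes. Of the 31 heavy members 29 belonged to Ighv1, which is 46.0% of that family, and the others were Ighv5-9 and Ighv5-17. Among these heavy members only Ighv1-2, Ighv1-56, Ighv1-73, Ighv1-14, Ighv1-55, Ighv1-62-1, Ighv1-69, Ighv1-62-2 and Ighv1-71 exceeded the background percentile on any basophilic array. None of the 6 kappa members did. For the rest the separation is one of deposited values near background and not a measured fold of transcript. Without replicate 2 of both basophilic groups the lower arrangement held for 45.3% of heavy members and 18.4% of all genes, and without deficient basophilic replicate 3 for 41.0% and 4.81%. These shares are descriptions, since related genes can share signal. Without that replicate, whose labels conflict, 0 heavy and 0 kappa members were called for diet in basophilic erythroblasts, where 0% of all genes were.

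Ighv1-62-2 and Ighv1-71, with the values already given, had the lowest difference in basophilic erythroblasts, -2.44 with a standard error of 1.02 (adjusted p = 0.705, limma). Ighv1-2 differed by -0.86 with a standard error of 0.40 (adjusted p = 0.766, limma). Ighv1-64 was at 5.82, 6.15 and 6.20 on the adequate and 5.03, 4.61 and 5.51 on the deficient diet, without overlap, a difference of -1.01. Igkv8-30 was at 6.25, 6.20 and 6.15 against 4.81, 5.93 and 5.36, also without overlap, a difference of -0.83 with a standard error of 0.46 (adjusted p = 0.891, limma). Neither Ighv1-64 nor Igkv8-30 was above the background percentile on any basophilic array. With the replicate block within each stage, a fit that called 1.45% of all genes tested, 3 of 100 heavy members were called: Ighv9-3 at -1.86 (adjusted p = 0.0124, limma), Ighv1-77 at -0.97 and Ighv1-75 at -0.61. No kappa member was.

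The stage comparison asked how V gene signal changed from proerythroblasts to basophilic erythroblasts. On the deficient diet it fell for many members: 38 of the 100 tested heavy members and 27 of the 65 tested kappa members fell (limma, adjusted p under 0.05), where 24.9% of all genes did. A rise was called for 4 heavy and 0 kappa members, where 31.1% of all genes rose. Of the members that fell, 33 heavy and 24 kappa were above the background percentile on no deficient basophilic array, and 5 heavy and 6 kappa of these on no deficient proerythroblast array either. For such members a difference is one of deposited values near background and not a measured fold of transcript. The falls ranged from -0.83 to -2.42 for heavy and from -0.64 to -2.75 for kappa members. Over all members the median difference was -0.85 for heavy and -0.69 for kappa, against 0.25 over all genes.

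Among heavy families, 29 of 57 tested Ighv1 members fell and 1 rose. Of the 6 tested Ighv8 members 3 fell, and of the 8 tested Ighv2 members none fell and 2 rose. Among kappa families, 17 of 23 tested Igkv4 members fell, with a family median of -1.89. The basophilic arrays lay below all proerythroblast arrays for 56 heavy members (47.9%) and 41 kappa members (47.7%), against 20.1% of all genes and 29.6% of those tested. They lay above for 4 and 3, against 41.4% and 36.9%.

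Ighv1-82 had the smallest p. It was at 8.83, 8.43 and 8.52 in deficient proerythroblasts and 6.32, 5.79 and 6.61 in deficient basophilic erythroblasts, far apart. It fell by 2.35 on the log2 scale with a standard error of 0.49 (adjusted p = 0.00573, limma). Ighv1-2 fell by 1.85 with a standard error of 0.40 (adjusted p = 0.00631, limma). Ighv1-78 went from 5.95, 6.30 and 6.59 to 3.90, 3.45 and 4.22 and fell by 2.42 with a standard error of 0.54 (adjusted p = 0.00746, limma), but all 6 of these values were below the background percentile of their arrays. Ighv1-82 was above it on the 3 proerythroblast arrays and on no basophilic array, and Ighv1-2 on all 6. These 3 genes passed in each of the 12 fits that left out 1 array.

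The other heavy members named by the rule were Ighv1-77, Ighv1-26, Ighv1-55, Ighv1-76, Ighv1-64, Ighv1-42 and Ighv1-5, which fell by between 1.73 and 2.10, without overlap. Ighv1-55 went from 8.36, 8.82 and 9.57 to 6.97, 6.51 and 7.50. None of these 7 passed without deficient proerythroblast replicate 3, where the adjusted p lay between 0.0537 and 0.108 (limma).

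The 10 called kappa members with the largest falls were all of Igkv4. Igkv5-39, with a difference of -2.52 and no overlap, did not pass (adjusted p = 0.0672, limma). Igkv4-59, with the values already given, fell by 2.75 with a standard error of 0.82 (adjusted p = 0.0188, limma). Igkv4-69 went from 6.74, 7.49 and 8.91 to 5.35, 4.52 and 5.91 and fell by 2.45 (adjusted p = 0.0171, limma). Igkv4-57, Igkv4-55, Igkv4-54, Igkv4-63, Igkv4-80, Igkv4-62, Igkv4-71 and Igkv4-86 fell by between 2.15 and 2.56. In each of these genes replicate 3 was the highest proerythroblast array. Over all members, calls in either direction numbered 42 heavy and 27 kappa with all arrays, where 56% of all genes were called. Without deficient proerythroblast replicate 3 they numbered 5 and 2, where 24.6% of all genes were called, and without deficient basophilic replicate 2 they numbered 23 and 5, where 42% were. Without replicate 1 of the deficient basophilic group the counts were 27 and 17 (58.1% of all genes), and without replicate 2 of the deficient proerythroblasts 27 and 9 (41.2%). Without deficient basophilic replicate 3, whose labels conflict, they were 40 and 27 (61.7%). Without replicate 3 of both proerythroblast groups 31 heavy and 13 kappa members were called, where 14% of all genes were.

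The 4 heavy members that rose on the deficient diet were Ighv6-7, Ighv2-1, Ighv2-3 and Ighv1-13. Ighv6-7 went from 5.03, 4.80 and 5.1 to 5.67, 6.07 and 5.30, a rise of 0.70 with a standard error of 0.18 (adjusted p = 0.0113, limma). Ighv2-1 went from 6.42, 6.47 and 6.39 to 7.03, 7.59 and 6.61 and rose by 0.65 (adjusted p = 0.0209, limma). Ighv2-3 rose by 0.50 and Ighv1-13 by 0.31. Apart from Ighv2-3, these members were above the background percentile on no array of either stage. The median of all genes moved up by 0.25 between the stages, and by 0.05 once array medians were equal. Under that centring Ighv2-3 and Ighv1-13 were no longer called.

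On the adequate diet few members passed. A rise was called for 2 heavy and 2 kappa members, where 28.7% of all genes rose, and a fall for 3 heavy and 2 kappa members, where 25.6% of all genes fell. The median difference over all members was nonetheless -0.58 for heavy and -0.64 for kappa, against 0.25 over all genes. Without adequate proerythroblast replicate 3 the median over the tested members was -0.06 for heavy and -0.17 for kappa, against -0.67 and -0.76 with it. Without adequate proerythroblast replicate 1, 20 heavy and 20 kappa members were called, where 30.8% of all genes were, against 54.2% with all arrays. The basophilic arrays lay below the proerythroblast arrays for 6 heavy and 5 kappa members, or 5.13% and 5.81%, against 22% of all genes and 32.6% of those tested. They lay above for 7 and 5, against 47.3% and 41.4%.

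The falls on the adequate diet included Ighv1-82, from 7.32, 7.25 and 9.59 to 6.84, 6.40 and 6.64. The groups did not overlap and the gene fell by 1.43 with a standard error of 0.49 (adjusted p = 0.0315, limma). Igkv8-30 went from 6.45, 7.39 and 8.76 to 6.25, 6.20 and 6.15 and fell by 1.33 (adjusted p = 0.0305, limma), and Igkv1-88 fell by 0.96 with overlapping groups. Ighv1-82, Ighv5-4 and Igkv8-30 fell on both diets, and Ighv6-7 and Ighv2-1 rose on both. Rises of Ighv2-1 at 0.57, Ighv6-7 at 0.54, Igkv2-112 at 0.62 and Igkv12-47 at 0.40 were called, and none of the 4 was called after median centring. Of these 4 only Igkv12-47 was above the background percentile on any adequate array, 1 of the proerythroblasts. The 3 heavy and 2 kappa members that fell were above it on no adequate basophilic array, so their falls are not measured folds of transcript. Igkv4-53 had a difference of -1.42 (adjusted p = 0.0519, limma). None of the 23 tested Igkv4 members passed, although the family median was -1.33.

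**Figure D5:**
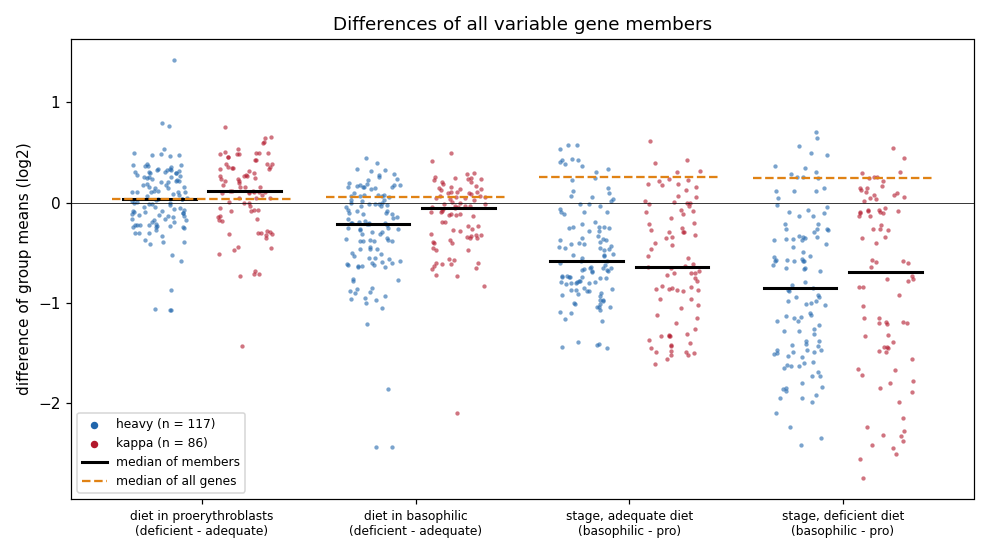
Difference of group means (log2, vertical axis) for each heavy member (blue) and kappa member (red) in the diet comparison of each stage and the stage comparison of each diet, with black lines at the medians of the members and dashed lines at the median of all genes. The members lie around the dashed line for diet in proerythroblasts and mostly below it in both stage comparisons, with medians of -0.85 and -0.69 on the deficient diet.

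The diet by stage interaction is the diet difference in basophilic erythroblasts minus that in proerythroblasts. It tests whether the stage difference itself depended on the diet, which the unequal numbers of calls do not show. No heavy and no kappa member passed, where 0.303% of all genes did (0.159% higher and 0.144% lower), and 0 heavy and 2 kappa members had an unadjusted p under 0.05. The median was -0.25 over all heavy and -0.18 over all kappa members, beside 0.03 over all genes. Over the tested members it was -0.30 and -0.27, -0.80 and -0.87 without adequate proerythroblast replicate 3, and 0.03 and 0.09 without adequate proerythroblast replicate 1. Without deficient proerythroblast replicate 3 it was -0.08 and -0.07. Igkv1-133 had the smallest p, at -1.0 with a standard error of 0.38 (adjusted p = 0.392, limma). With the replicate block within each stage, a fit that called 2.93% of all genes tested, Ighv6-5 at -0.76, Ighv1-77 at -1.20 and Igkv4-69 at -0.96 were called (limma, adjusted p = 0.0434, 0.0344 and 0.0372).

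The other parts of the antibody, and of the cells that make it, are given for the lists of constant, surrogate light chain, plasma cell and B cell genes. Of 12 constant genes listed, Ighm, Ighg1, Ighg2b and Ighe had a feature of their own. Ighm, the constant region of IgM, was at 11.08, 11.95 and 12.82 in adequate and 11.61, 12.15 and 12.40 in deficient proerythroblasts, and at 10.85, 11.04 and 11.31 in adequate and 10.36, 9.47 and 10.87 in deficient basophilic erythroblasts. Its arrays did not overlap between the stages on the deficient diet, where it fell by 1.82 with a standard error of 0.42 (adjusted p = 0.00875, limma). On the adequate diet the difference was -0.88 (adjusted p = 0.0911, limma). The diet differences of Ighm were 0.10 and -0.83 in the earlier and later stage and did not pass.

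Ighg2b, an IgG constant region, was at 7.88, 8.43 and 8.25 in adequate and 6.97, 6.91 and 6.99 in deficient basophilic erythroblasts, without overlap, a difference of -1.23 (adjusted p = 0.811, limma). It fell between the stages on the deficient diet by 1.53 (adjusted p = 0.0493, limma). Its deficient basophilic values were all below the background percentile of their arrays, so neither difference is a measured fold of transcript. Ighe, the constant region of IgE, was at 5.20, 5.16 and 5.03 in deficient proerythroblasts and 5.64, 6.04 and 5.62 in deficient basophilic erythroblasts, higher without overlap, a difference of 0.64 (adjusted p = 0.167, limma). Ighg1, of IgG1, differed by -0.30 between these groups, which overlapped (adjusted p = 0.587, limma). Igkc, the kappa constant region, shared its feature with J and V genes of the kappa locus. That feature was at 7.06, 7.74 and 8.85 in adequate and 7.48, 7.49 and 7.99 in deficient proerythroblasts, and at 6.99, 7.05 and 7.26 and then 6.54, 6.62 and 6.83 in the basophilic groups. It, too, was highest on replicate 3 of each group and lower on every deficient than on every adequate basophilic array. All its basophilic values were below the background percentile of their arrays, as were all values of Ighe on the deficient diet. Those differences are of deposited values near background.

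Jchain, which links IgM and IgA units in antibody-secreting cells, was at 7.42, 7.67 and 10.03 in adequate and 7.66, 7.71 and 9.09 in deficient proerythroblasts, and at 6.92, 7.21 and 7.21 and then 5.69, 5.38 and 6.59 in the basophilic groups. It fell by 2.27 between the stages on the deficient diet (adjusted p = 0.0140, limma), and the diet difference in basophilic erythroblasts was -1.23, without overlap (adjusted p = 0.818, limma). Every basophilic value of Jchain was below the background percentile of its array, so these are not measured folds of transcript. Of the 15 plasma cell genes 4 fell and 2 rose between the stages on the deficient diet, and 4 fell and 1 rose on the adequate diet, so the share that fell (26.7%) was near that of all genes. Txndc5, a disulphide isomerase of the endoplasmic reticulum, fell on both diets, by 0.68 and 1.37. Its basophilic values, too, were all below the background percentile. The members that rose were Tent5c on both diets and Xbp1 on the deficient diet, genes that are not restricted to plasma cells.

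Of the 20 measured B cell genes 2 fell between the stages on the deficient diet, H2-Ab1 by 1.01 and Cd37 by 0.67, and 1 fell on the adequate diet, Cd37 by 0.93. Among all genes tested 24.9% fell on the deficient and 25.6% on the adequate diet, larger shares than in this list. H2-Ab1 encodes an MHC class II chain and Cd37 a tetraspanin of B cells. Cd79a, part of the B cell receptor, ranged from 7.22 to 8.23 over the 12 arrays. The diet comparisons called none of the 20. Tnfrsf13c, the BAFF receptor, differed from the rest of the list, with 6.59, 6.71 and 7.17 in adequate and 9.57, 8.53 and 9.03 in deficient proerythroblasts (difference 2.22, adjusted p = 0.0545, limma).

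The surrogate light chain genes Vpreb1, Vpreb2 and Vpreb3, whose products pair with the heavy chain in precursor B cells (Vpreb3 is a related gene), are given beside an all-gene shift of 0.25 between the stages. All 3 rose between the stages on the deficient diet, by 0.61, 0.85 and 0.56 (limma, adjusted p = 0.0244, 0.0101 and 0.0213), and Vpreb2 rose by 0.77 on the adequate diet (adjusted p = 0.0120, limma). On every deficient array the values of these 3 genes were below the background percentile of that array, which was itself higher on the basophilic arrays. The rises on that diet are therefore differences of deposited values near background. The highest array for each gene was replicate 2 of the deficient basophilic erythroblasts, which also held the highest median of all features.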

How the data were processed

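The authors deposited 1 table of log2 expression values for 12 Affymetrix whole-transcript arrays, made with Affymetrix Expression Console per the submitters' processing notes. Background correction, summarisation, normalization and genome build are not given in the sources used here, and the array medians differ. No column lacked a sample (0). Samples were grouped by title.

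Symbols were updated through RefSeq, and 4 members were renamed. For a gene with several features the one with the highest mean was kept. The filter kept 20129 of 30701 genes, those that exceeded the table's overall median of 5.30 on 3 arrays or more. The model (R 4.3.3, limma 3.58.1) held 1 mean for each group and used all 12 arrays, eBayes and Benjamini-Hochberg adjustment, for 5 comparisons. Tables were prepared with python 3.11.15 and pandas 2.3.3. The fit was tested on simulated data with changed genes in the diet comparison of proerythroblasts: of 100 genes changed by 1 on the log2 scale 59 were recovered, and of 100 changed by 2, 91. In each case 10 false calls were made as well. Recovery was not measured for V genes apart, and these shares cannot be carried over to them. Their median SD in adequate and deficient proerythroblasts was 1.04 and 0.53 for heavy and 0.86 and 0.46 for kappa members. Over all genes it was 0.10 and 0.12.

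Same-numbered arrays of the 2 diets deviated together within each stage, with correlations over all genes tested of 0.457, 0.180 and 0.524 in proerythroblasts and 0.717, 0.782 and 0.540 in basophilic erythroblasts. The replicate number therefore pairs samples for the diet comparisons, from the data and not from the labels. The main fit did not use this pairing, so its diet and interaction p-values are unpaired. Calls of the fit with the block within each stage are given beside them. Across the stages such values ranged from -0.165 to 0.276.

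Genes named are the 8 heavy and 8 kappa members with the highest mean, and, for each comparison and class, up to 10 highest and 10 lowest differences among members past the threshold without overlap. Where fewer than 5 passed, the rule takes the 5 with the smallest p. Up to 4 genes per list and comparison, and Ighm, Igkc and Jchain, are also named. Not every gene so chosen is described. The members and lists were chosen with earlier results of these data known. Alternatives were other filters, quantile normalization, median centring, a replicate block, array weights, the arrays of the comparison only, every feature by itself and leaving out arrays. Some were chosen after seeing the data: leaving out replicate 3 of both proerythroblast groups or replicate 2 of both basophilic groups, and a block within each stage.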

Additional observations from a re-analysis of the deposited data

Results flagged for a closer look

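Igkv2-112 had diet differences of opposite direction at the 2 stages. Its deficient arrays lay above all adequate arrays in proerythroblasts, at 5.27, 5.23 and 5.88 against 5.22, 5.02 and 5.14, and below all of them in basophilic erythroblasts, at 5.6, 5.27 and 5.67 against 5.73, 5.81 and 5.70. The gene was above the background percentile on no array of any group, so these are differences of deposited values near background. The interaction was -0.57 with a standard error of 0.25 and did not pass (adjusted p = 0.516, limma).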

How the results depend on the processing

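Setting each named member against each alternative, 1182 values kept direction and side of the threshold, 158 lost the call, 23 gained it and 2 changed sign, both with array weights: Igkv5-39 for diet in basophilic erythroblasts (0.13) and Igkv9-123 for the interaction (-0.15). For the stage on the adequate diet, heavy and kappa members called were 3 and 2 with the stricter filter, where 56% of all genes were called. They were 2 and 7 with quantile normalization (32.9% of all genes). With the replicate block across all groups they were 20 and 27 (61.1%). Over all genes, same-numbered arrays of different stages did not all deviate together, while the V genes' own deviations did, both within a diet and between diets. Median centring gave 3 heavy calls for the stage on the adequate diet (41.1% of all genes). Array weights called 29 heavy and 34 kappa members for diet in proerythroblasts (kappa median 0.67, with 39.8% of all genes called). They called 13 kappa for stage on the deficient diet (54.7% of all genes) and 1 kappa for the interaction (kappa median -0.78, 2.4% of all genes). The arrays of the comparison only gave 1 kappa call for diet in proerythroblasts (12% of all genes). Without the filter the kappa median for stage on the deficient diet was -0.69. The cause of these moves was not tested.

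Without replicate 3 of both proerythroblast groups, 0 heavy and 1 kappa member were called for stage on the adequate diet (medians -0.064 and -0.17, 28% of all genes called). On the deficient diet 13 kappa were (14% of all genes). Without replicate 2 of both basophilic groups, 1 heavy and 2 kappa members were called for diet in proerythroblasts, where 16.4% of all genes were. For stage on the deficient diet 22 and 6 were called, where 58.7% of all genes were. The replicate block within each stage called 2 heavy and 3 kappa members for diet in proerythroblasts (11.1% of all genes), 3 heavy in basophilic erythroblasts (1.45%), and 2 heavy and 1 kappa for the interaction (2.93%). It could not be fitted for the stage comparisons, since it lies within the stage.

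Leaving out 1 array at a time gave 0 to 2 heavy and 0 to 1 kappa calls for diet in proerythroblasts, where 1.56% to 8.98% of all genes were called. It gave 0 and 0 for diet in basophilic erythroblasts (0% to 1.44% of all genes) and for the interaction (0.0596% to 1.4%). For the stage it gave 0 to 20 heavy and 1 to 20 kappa calls on the adequate diet (27.9% to 71.2% of all genes). On the deficient diet it gave 5 to 54 heavy and 2 to 38 kappa calls (24.6% to 61.7% of all genes). The heavy and kappa medians ranged from -1.12 to -0.064 and from -1.15 to -0.17 for stage on the adequate diet. The kappa median of the interaction ranged from -0.87 to 0.09. The median shift of all genes between the stages, 0.25 on both diets, was 0.06 and 0.07 with quantile normalization. The median difference of Ighv2 between the stages stayed above 0 with quantile normalization and with median centring, and the heavy median for diet in proerythroblasts was -0.05 with median centring.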
